A study of Homo sapiens with 9 samples.

Results

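Expression of 10 genes of the epithelial-mesenchymal programme was followed in TC-32, an established line of Ewing sarcoma cells with the fusion oncogene EWSR1::FLI1. They are the transcription factors SNAI1, SNAI2, TWIST1, ZEB1 and ZEB2, the intermediate filament gene VIM, the cadherin genes CDH1, CDH2 and CDH11, and EPCAM. They were taken by gene symbol from the deposited tables of 58381 genes, where each of the 10 symbols stood in 1 row. The question of the study was which genes respond to ETS1, an ETS-family transcription factor, in cells that still have the fusion. Of 9 RNA-seq libraries, 3 came from TC-32 cells with the lentiviral vector pLOC carrying a red fluorescent protein (RFP). Another 3 came from cells with pLOC carrying a synthetic human ETS1 cDNA at a lower level (ETS1-Low), and 3 from cells with the same construct at a higher level (ETS1-High), chosen to match the ETS1 level seen after loss of the fusion. According to the labels, transduced cells were selected with puromycin and sorted as single cells, and the ETS1 groups were single cell clones. The number of clones behind each group is not given, so a difference between groups and a difference between clones cannot be told apart, and p-values measure only the spread between these libraries, which may be technical. The fusion was present in all 3 groups.

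In the epithelial-mesenchymal transition, cells that adhere through E-cadherin (the product of CDH1) lose it and take on a motile, fibroblast-like form. SNAI1, SNAI2, ZEB1 and ZEB2 are zinc finger repressors and TWIST1 is a basic helix-loop-helix factor. The zinc finger repressors bind E-box motifs in the promoters of epithelial genes, CDH1 among them. VIM (vimentin), CDH2 (N-cadherin) and CDH11 (OB-cadherin) are used as markers of the mesenchymal state, and EPCAM, an epithelial adhesion molecule, as a marker of the epithelial one. Ewing sarcoma is a tumour of bone and soft tissue that lacks most features of an epithelium.

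The promoters of 4 of the 10 genes stood in the RefSeq sequence table (GRCh38.p14): those of ZEB1, ZEB2, VIM and CDH2. SNAI1, SNAI2, TWIST1, CDH1, CDH11 and EPCAM had no entry. The 250 bases before the most upstream start listed there are shown for CDH2, ZEB1 and VIM. Among the tested genes of the set, CDH2 had the widest range between the groups. ZEB1 and VIM moved in opposite directions in ETS1-High against RFP. Each window is written 5′ to 3′ on the strand of its gene. Capitals mark the ETS core GGAA, its reverse complement TTCC, and the E-box CAGGTG or its reverse complement.
CDH2, chr18:28177131-28177380, minus strand: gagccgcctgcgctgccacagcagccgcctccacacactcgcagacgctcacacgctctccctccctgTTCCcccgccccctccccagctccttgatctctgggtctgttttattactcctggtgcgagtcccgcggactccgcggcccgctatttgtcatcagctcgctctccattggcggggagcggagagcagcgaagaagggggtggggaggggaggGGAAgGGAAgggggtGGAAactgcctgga
ZEB1, chr10:31318167-31318416, plus strand: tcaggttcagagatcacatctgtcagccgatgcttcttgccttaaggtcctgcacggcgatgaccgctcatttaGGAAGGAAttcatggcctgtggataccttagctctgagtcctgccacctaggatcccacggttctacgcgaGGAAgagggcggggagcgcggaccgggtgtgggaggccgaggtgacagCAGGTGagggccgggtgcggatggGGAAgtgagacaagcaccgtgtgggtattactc
VIM, chr10:17227991-17228240, plus strand: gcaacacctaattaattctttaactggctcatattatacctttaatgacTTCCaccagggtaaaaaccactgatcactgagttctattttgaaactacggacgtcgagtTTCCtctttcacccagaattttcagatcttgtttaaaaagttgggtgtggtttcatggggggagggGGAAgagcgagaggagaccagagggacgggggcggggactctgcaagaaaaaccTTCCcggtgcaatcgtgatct
Both strands were searched for the ETS core GGAA, for its direct repeat GGAAGGAA, which contains the core, for the E-box CAGGTG, and for any E-box, CANNTG, which contains the former. The CDH2, ZEB1 and VIM windows each held 4 matches to GGAA. Of 35116 promoter windows of this length in the table, 92.7% held at least 1 match, with a median of 3. CAGGTG was found in 1 place in the ZEB1 window and in 0 places in those of CDH2 and VIM, against 17.5% of all windows. CANNTG was found 2 times in the ZEB1 window and 0 times in those of CDH2 and VIM, against 61.8% of all windows. GGAAGGAA was found 1 time, in the ZEB1 window, against 3.1% of all windows. The ZEB1 window shown is that of 1 of 7 starts listed for the gene, and the CDH2 window that of 1 of 2. In the other ZEB1 windows GGAAGGAA had 0 matches. CAGGTG was found in only 1 of them, that of start 3 counted from upstream, with 2 matches. These matches describe the letters of each window. By GENCODE v44 the CDH2 and VIM windows shown overlap no exon, and the ZEB1 window shown overlaps an exon of the antisense gene ZEB1-AS1. The CDH2 window lies within the span of the gene in that annotation, whose 5′ end is farther upstream.

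ETS1 followed its labels without overlap. It stood at 1.81, 2.03 and 2.15 CPM (counts scaled to library size) in the RFP libraries, at 10.6, 10.9 and 10.3 CPM in ETS1-Low and at 19.4, 18.2 and 19.7 CPM in ETS1-High. The totals of expected counts per library ran from 39484704 to 46654734. Of 8 Ewing sarcoma markers, 8 were called higher in each ETS1 group than in RFP, where 37% (ETS1-High) and 37.9% (ETS1-Low) of all genes tested were. Their summed FPKM was 2220 to 2330 in RFP, 2600 to 2670 in ETS1-Low and 2880 to 2920 in ETS1-High. Most of each sum came from CAV1, with a mean of 1690, 1940 and 2150 FPKM in the same order. CD99, the surface antigen used to diagnose the tumour, stood at 166 ± 3.68 CPM in RFP (SD, n = 3), while STEAP1 and BCL11B stood at 44.4 and 109 CPM. The call of BCL11B in ETS1-Low was lost with the FPKM values (adjusted p 0.299 to 0.315, limma). NKX2-2 and NR0B1, whose calls were not tried in other settings, differed little in FPKM between RFP and ETS1-High. NKX2-2 stood at 49.5 and 49.4 FPKM, and NR0B1 at 221 and 225 FPKM. The 10 markers of other cell types summed to 1.59 to 2.18 FPKM in RFP, 1.44 to 2.49 in ETS1-Low and 3.09 to 3.41 in ETS1-High, with CD3E and MLANA at 0 in all libraries and 3 of the 10 tested. Of these 3, KRT5, a basal epithelial keratin, had 0 to 2 counts per RFP library, 23 to 50.93 in ETS1-Low and 77.95 to 129.98 in ETS1-High. The endothelial gene PECAM1 rose and the monocyte gene CD14 fell in ETS1-High against RFP, by log2 fold changes of 1.60 and -2.16. The part of these markers in the results was not tested. In bulk RNA, fewer cells of a type and less RNA per cell cannot be told apart.

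Of the 10 genes, 8 passed the filter on low counts and were tested with 17235 genes in the edgeR quasi-likelihood test, in which a gene was called at a Benjamini-Hochberg adjusted p under 0.05. CDH1 and EPCAM did not pass it. In ETS1-Low against RFP, 6 of the 8 were called (1 higher, 5 lower), where 74.1% of all genes tested were called, 37.9% higher and 36.2% lower. In ETS1-High against RFP, 6 of the 8 were called (3 higher, 3 lower), where 74.2% of all genes were called, 37% higher and 37.2% lower. In ETS1-High against ETS1-Low, 8 of the 8 were called (6 higher, 2 lower), where 59.2% of all genes were called, 29.9% higher and 29.3% lower. A change of at least 2-fold was reached by 1, 1 and 3 of them in these comparisons, in the order given, against 20.6%, 21% and 9.74% of all genes. The libraries of the groups did not overlap in 76%, 75.5% and 63.2% of all genes tested, the background for each such statement on a single gene. The median log2 fold change of the 8 was -0.20, -0.07 and 0.75, beside 0.01, -0.01 and 0 over all genes tested. With no filter on low counts, which brings in CDH1 and EPCAM, the first and the last were -0.08 and 0.50, and with FPKM plus 1 and no filter the last was 0.31. The RFP libraries served as controls for both ETS1 groups, and ETS1-Low enters 2 of the 3 comparisons, so the values stand side by side without a test of their likeness.

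**Figure D1:**
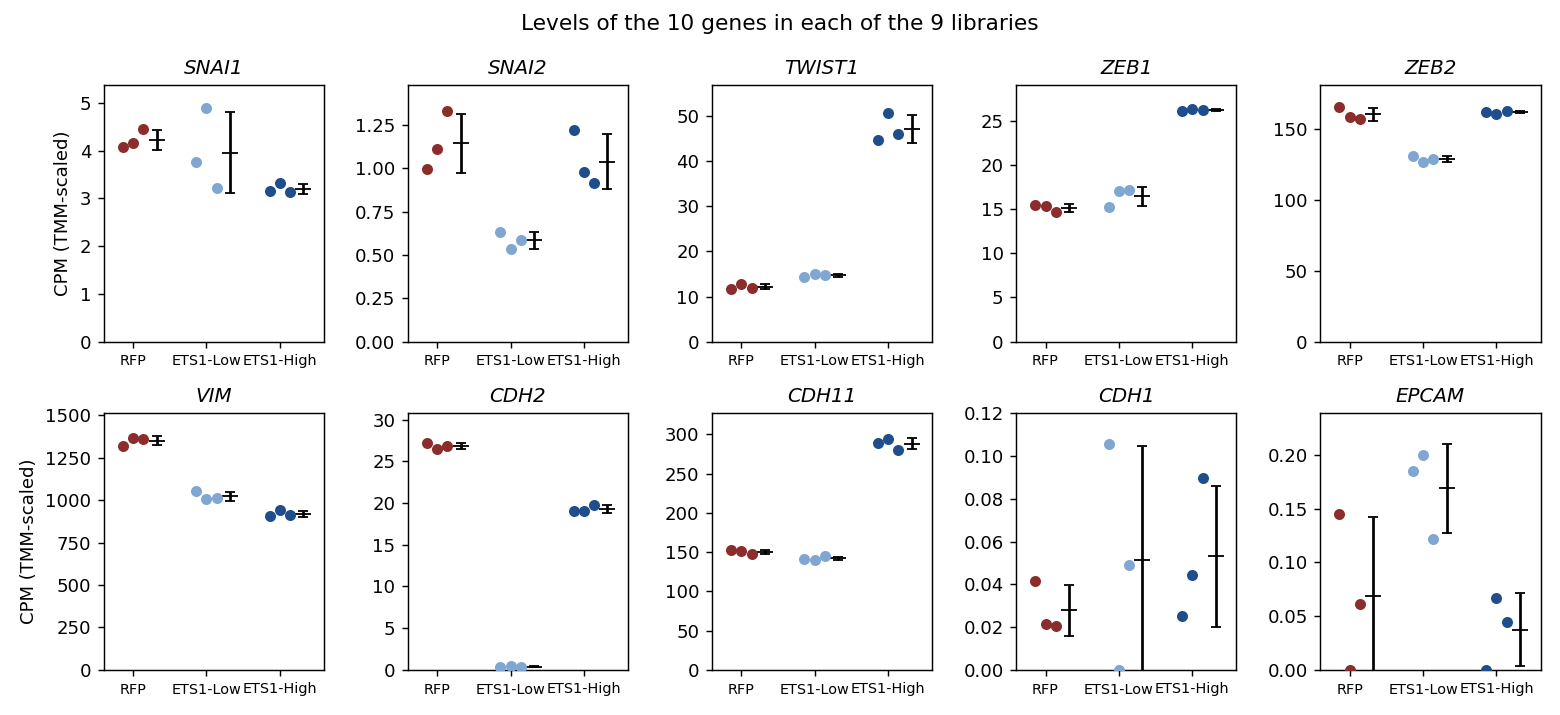
CPM of the 10 genes (vertical axes, each from 0) in the 3 libraries of RFP, ETS1-Low and ETS1-High, with points for libraries and a bar at the right of each group for the mean ± SD. TWIST1 and CDH11 stood apart in ETS1-High, at 47.2 and 288 CPM, and CDH2 in ETS1-Low, at 0.391 CPM, while CDH1 and EPCAM stayed at or below 0.2 CPM in the 9 libraries.

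SNAI1 (ENSG00000124216.3; chromosome 20, 49982980 to 49988886 on GRCh38, plus strand) encodes Snail, a repressor of CDH1. It stood at 4.07, 4.16 and 4.47 CPM in RFP, at 3.76, 4.89 and 3.22 CPM in ETS1-Low and at 3.15, 3.32 and 3.14 CPM in ETS1-High. The ETS1-High libraries were all below the RFP libraries, and the ETS1-Low libraries spread across both groups. SNAI1 fell in ETS1-High against RFP by 0.40 on the log2 scale (SE 0.12; adjusted p 0.00235, edgeR). The change in ETS1-Low against RFP did not pass the threshold, with a log2 fold change of -0.09 and a 95% interval of -0.33 to 0.14. Between ETS1-High and ETS1-Low the log2 fold change was -0.31 (SE 0.12; adjusted p 0.0257, edgeR). That call rests on ETS1-Low replicate 2, without which the value was -0.12 (adjusted p 0.459), and it was also lost without ETS1-High replicate 1 or 3 (adjusted p 0.0633 and 0.0684), with the DESeq2 test (0.0938) and with the FPKM values (0.152 to 0.321). Without that same ETS1-Low library, SNAI1 passed the threshold in ETS1-Low against RFP, at -0.28 (adjusted p 0.0463, edgeR).

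SNAI2 (ENSG00000019549.10; chromosome 8, 48917598 to 48921740, minus strand) encodes Slug, the Snail relative known from neural crest cells. It was low in all libraries, with 48, 52 and 65 counts in RFP, 24 in each ETS1-Low library, and 48, 44 and 41 in ETS1-High. The ETS1-Low libraries lay below all others, and RFP and ETS1-High overlapped. SNAI2 fell in ETS1-Low against RFP by 0.97 on the log2 scale (SE 0.24; adjusted p 0.000258, edgeR) and was higher by 0.82 when ETS1-High was set against ETS1-Low (SE 0.24; adjusted p 0.00295, edgeR). On the log2(FPKM + 1) scale, which compresses low genes, these were -0.35 and 0.28, still called. ETS1-High and RFP differed by -0.15, with a 95% interval of -0.58 to 0.28, so a change of up to that size was not detectable at this depth.

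TWIST1 (ENSG00000122691.12; chromosome 7, 19020991 to 19117636, minus strand) encodes a factor of mesoderm and neural crest development. It stood at 11.7, 12.8 and 11.9 CPM in RFP, at 14.4, 15.0 and 14.8 CPM in ETS1-Low and at 44.8, 50.8 and 46.0 CPM in ETS1-High. The 3 groups did not overlap and followed the order of ETS1. Of the 5 factors it rose most in ETS1-High, 3.88-fold against RFP (log2 fold change 1.96, SE 0.05; adjusted p 9.88e-36, edgeR) and 3.21-fold against ETS1-Low (1.68, SE 0.05; adjusted p 2.64e-32, edgeR). Its rise in ETS1-Low against RFP was 1.21-fold (log2 fold change 0.28, SE 0.06; adjusted p 4.2e-05, edgeR). In ETS1-High against RFP, 90.2% of all tested genes had a smaller absolute change. Against RFP, the median over the 37 genes within 10 Mb of TWIST1 was -0.11 for ETS1-High and 0.02 for ETS1-Low.

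ZEB1 (ENSG00000148516.21; chromosome 10, 31318495 to 31529814, plus strand) stood at 15.5, 15.3 and 14.6 CPM in RFP, at 15.2, 17.0 and 17.1 CPM in ETS1-Low and at 26.1, 26.3 and 26.2 CPM in ETS1-High. The ETS1-High libraries lay above all others. ZEB1 rose 1.73-fold in ETS1-High against RFP (log2 fold change 0.79, SE 0.05; adjusted p 1.29e-18, edgeR) and 1.59-fold against ETS1-Low (0.67, SE 0.05; adjusted p 1.71e-15, edgeR). Libraries of ETS1-Low and RFP overlapped, and their log2 fold change of 0.12 stood at the threshold without passing it (SE 0.06; adjusted p 0.05 after rounding, edgeR). It passed without ETS1-Low replicate 1 (0.18, adjusted p 0.00939, edgeR) and turned to -0.04 and -0.05 with the FPKM values, where it did not pass. Over the 49 genes within 10 Mb of ZEB1 the median against RFP was 0.11 for ETS1-High and 0.34 for ETS1-Low.

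ZEB2 (ENSG00000169554.19; chromosome 2, 144364364 to 144521057, minus strand), the close relative of ZEB1, was the more abundant of the pair. It stood at 165.9, 158.7 and 157.3 CPM in RFP, at 131, 126.8 and 128.9 CPM in ETS1-Low and at 162.4, 161 and 162.9 CPM in ETS1-High. The ETS1-Low libraries lay below all others. ZEB2 fell in ETS1-Low against RFP by 0.32 on the log2 scale (SE 0.03; adjusted p 2.05e-13, edgeR) and was higher by 0.33 when ETS1-High was set against ETS1-Low (SE 0.03; adjusted p 1.34e-13, edgeR). In ETS1-High against RFP the log2 fold change was 0.01, with a 95% interval of -0.05 to 0.07 (adjusted p 0.702, edgeR). This last value changed sign in other settings. Upper-quartile factors gave -0.05 (adjusted p 0.135, edgeR), and limma on the FPKM values, which differ in scaling and in test, gave -0.15, past the threshold (adjusted p 0.0108 to 0.0224, limma). The genes around ZEB2 were themselves higher, with a median against RFP of 0.75 for ETS1-High and 0.27 for ETS1-Low over 29 genes within 10 Mb. Over the 6 genes within 5 Mb the medians were 0.31 and -0.04. Between the ETS1 groups, these neighbours were higher in ETS1-High by about as much as ZEB2 itself. Their medians were 0.34 within 10 Mb and 0.31 within 5 Mb, beside 0.33 for ZEB2. The part of the neighbours in the ZEB2 values was not tested.

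Set side by side per length, the 5 factors changed in their proportions. In FPKM, which is scaled to gene length, their sum was 56.7 ± 0.86 in RFP, 45.1 ± 0.82 in ETS1-Low and 77.7 ± 2.89 in ETS1-High (SD, n = 3). ZEB2 made up 72.6 ± 1.1% of that sum in RFP, 64.7 ± 2.5% in ETS1-Low and 47.6 ± 0.46% in ETS1-High. TWIST1 made up 15.5 ± 0.98%, 22.4 ± 1.1% and 42.1 ± 0.95% in the same order. SNAI1, SNAI2 and ZEB1 stayed at or below 6.8% each in the 3 groups. ZEB2 was the highest of the 5 in every group, and in ETS1-High its FPKM of 35.8 to 38.1 lay just above the 31.7 to 34.7 of TWIST1. ZEB1 and SNAI1 overlapped in RFP, at 2.92 to 3.31 and 2.84 to 3.12 FPKM, and again in ETS1-Low, at 2.74 to 3.11 and 2.07 to 3.12 FPKM.

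**Figure D2:**
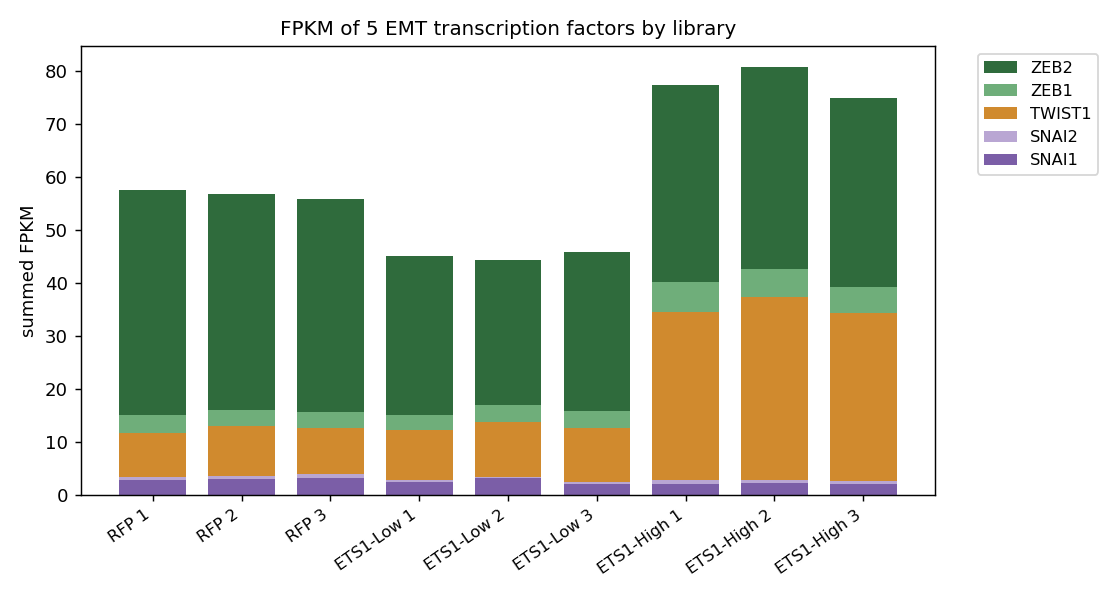
Stacked FPKM (vertical axis, from 0) of SNAI1, SNAI2, TWIST1, ZEB1 and ZEB2 in each of the 9 libraries. The TWIST1 segment grew from a mean of 8.81 FPKM in RFP to 32.7 FPKM in ETS1-High, while the ZEB2 segment had a mean of 41.2 FPKM in RFP, 29.2 in ETS1-Low and 37 in ETS1-High.

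VIM (ENSG00000026025.15; chromosome 10, 17228241 to 17237593, plus strand) was the most abundant of the 10 genes in every library and ranked 119 among all genes by mean FPKM in RFP, 165 in ETS1-Low and 166 in ETS1-High. It stood at 1319, 1369 and 1361 CPM in RFP, at 1054, 1004 and 1012 CPM in ETS1-Low and at 906.6, 939.4 and 910.1 CPM in ETS1-High. The groups did not overlap, and their order was the reverse of that of ETS1. VIM fell by 0.40 on the log2 scale in ETS1-Low against RFP (SE 0.03; adjusted p 3.24e-17, edgeR) and by 0.56 in ETS1-High (SE 0.03; adjusted p 1.12e-22, edgeR). Between ETS1-High and ETS1-Low the log2 fold change was -0.16 (adjusted p 1.19e-05, edgeR), beside a median of -0.27 over the 59 genes within 10 Mb. Against RFP those neighbours had medians of 0.21 in ETS1-Low and -0.10 in ETS1-High.

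CDH2 (ENSG00000170558.8; chromosome 18, 27932879 to 28177946, minus strand) encodes N-cadherin, the classical cadherin of neural and mesenchymal cells. It had 1306, 1240 and 1309 counts in the RFP libraries, 13, 23 and 13 in ETS1-Low, and 748, 856 and 884 in ETS1-High. In CPM these were 27.1, 26.5 and 26.8 in RFP, 0.34, 0.51 and 0.32 in ETS1-Low, and 19.0, 19.0 and 19.8 in ETS1-High. The groups did not overlap, and ETS1-Low, not ETS1-High, stood farthest from RFP. CDH2 fell 67.2-fold in ETS1-Low against RFP (log2 fold change -6.07, SE 0.11; adjusted p 1.08e-43, edgeR), the 188th lowest log2 fold change among 17235 genes. In ETS1-High against RFP it fell 1.39-fold (log2 fold change -0.48, SE 0.06; adjusted p 9.83e-11, edgeR). ETS1-High stood 48.4-fold above ETS1-Low (log2 fold change 5.60, SE 0.11; adjusted p 2.36e-40, edgeR), a difference larger than that of 99.6% of all genes tested. On the log2(FPKM + 1) scale the fall in ETS1-Low was -2.93, since that scale compresses low values. The 38 genes within 10 Mb had medians of 0.11 in ETS1-Low and 0.01 in ETS1-High against RFP, and the change of CDH2 less that of its neighbours was -6.18 in ETS1-Low.

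CDH11 (ENSG00000140937.13; chromosome 16, 64943753 to 65126112, minus strand) encodes OB-cadherin, a type II cadherin of osteoblasts and mesenchyme. It stood at 152.5, 150.9 and 147.6 CPM in RFP, at 140.7, 140.6 and 144.6 CPM in ETS1-Low and at 289.1, 294.4 and 280.3 CPM in ETS1-High. The ETS1-High libraries lay far above the others, and ETS1-Low lay just below RFP. CDH11 rose 1.92-fold in ETS1-High against RFP (log2 fold change 0.94, SE 0.03; adjusted p 2.68e-32, edgeR) and 2.03-fold against ETS1-Low (1.02, SE 0.03; adjusted p 4.77e-33, edgeR). Against RFP it also fell in ETS1-Low, by 0.08 on the log2 scale (SE 0.03; adjusted p 0.0134, edgeR). This small change was no longer past the threshold without ETS1-Low replicate 1 (adjusted p 0.0573, edgeR) or replicate 2 (0.0637). All 9 expected counts of CDH11 were non-whole, as RSEM gives where it divides reads among genes. The 143 genes within 10 Mb had a median against RFP of 0.02 for ETS1-High and -0.05 for ETS1-Low.

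**Figure D3:**
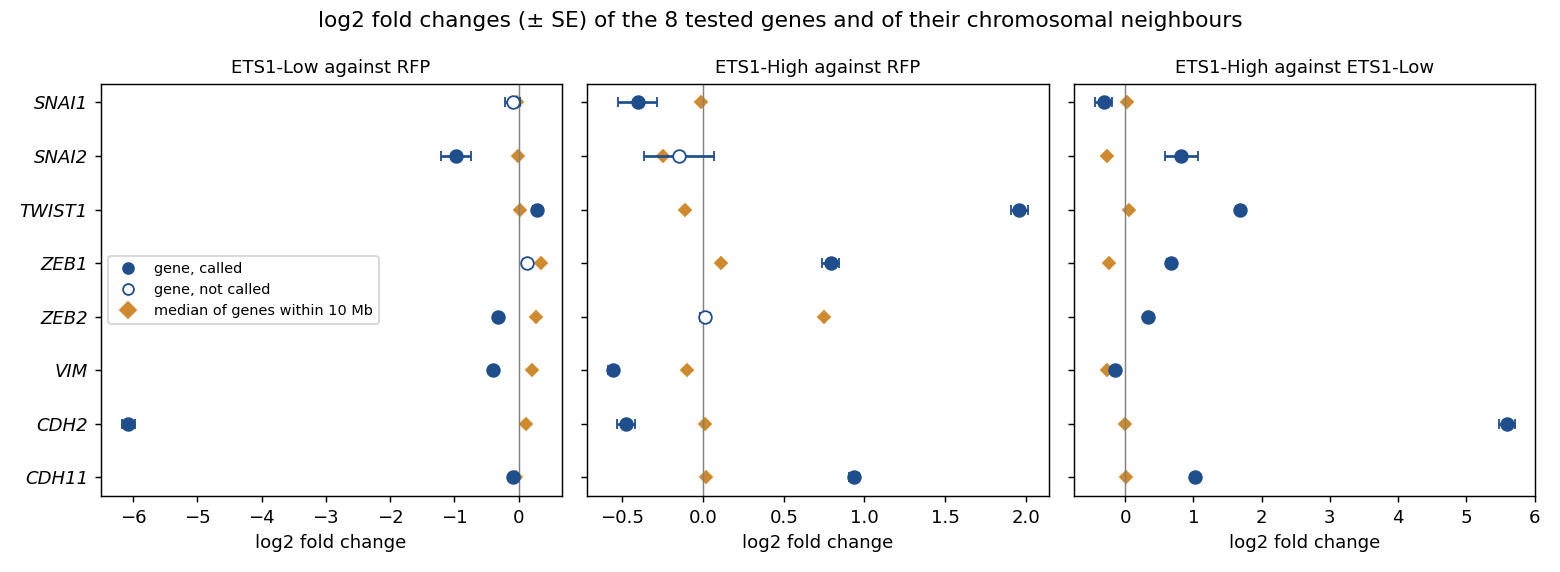
log2 fold changes (horizontal axes, a different range in each panel) of the 8 tested genes in the 3 comparisons, as circles with SE, filled where the gene was called, with diamonds for the median of the genes within 10 Mb. CDH2 in ETS1-Low against RFP (-6.07) and in ETS1-High against ETS1-Low (5.60) lay far from the other genes, while the regional medians ran from -0.27 to 0.75.

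CDH1 (ENSG00000039068.18; chromosome 16, 68737292 to 68835537, plus strand), the epithelial E-cadherin gene, had 2, 1 and 1 counts in the RFP libraries, 4, 0 and 2 in ETS1-Low, and 1, 2 and 4 in ETS1-High. The groups overlapped, and no difference was detectable at this depth. EPCAM (ENSG00000119888.10; chromosome 2, 47345158 to 47387601, plus strand) had 7, 0 and 3 counts in RFP, 7, 9 and 5 in ETS1-Low, and 0, 3 and 2 in ETS1-High. Its ETS1-Low libraries lay above those of ETS1-High, at counts too low for the filter, and RFP overlapped both. A count of 0 in a library allows up to 3 counts, which is 0.0615 to 0.0793 CPM across the 9 libraries, for counting error only. For EPCAM the ETS1-Low libraries lay above that limit, at 0.185, 0.2 and 0.122 CPM, as did RFP replicate 1 at 0.146 CPM. For CDH1, ETS1-Low replicate 1 and ETS1-High replicate 3 did, at 0.106 and 0.0896 CPM.

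The order of the 10 genes by FPKM was similar at its top in the 3 groups, with VIM first, then CDH11, ZEB2 and TWIST1. VIM stood at 860, 599 and 543 FPKM in RFP, ETS1-Low and ETS1-High, and CDH11 at 53.9, 45.5 and 96.1 FPKM. The position of CDH2 differed. In RFP it came next, at 7.42 ± 0.22 FPKM (SD, n = 3), below TWIST1 at 8.81 ± 0.49. In ETS1-High, at 4.90 to 5.04 FPKM, it could not be separated from ZEB1, at 4.88 to 5.70 FPKM. In ETS1-Low, at 0.09 to 0.14 FPKM, it could not be separated from EPCAM, at 0.09 to 0.13 FPKM.

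The other cadherins were examined beside the 3 of the set. Of 18 listed, 12 were tested. In ETS1-High against RFP, 7 were called higher and 4 lower, with a median log2 fold change of 0.92, and in ETS1-Low 5 higher and 6 lower, with a median of -0.42, beside -0.01 and 0.01 over all genes. Of all genes tested, 37% were called higher and 37.2% lower in the first comparison, and 37.9% and 36.2% in the second. Between ETS1-High and ETS1-Low, 8 were higher and 1 lower, where 29.9% and 29.3% of all genes were. CDH4 (R-cadherin) had 0.88 CPM in RFP and rose to 3.37 in ETS1-Low and 22.6 in ETS1-High, with log2 fold changes against RFP of 1.93 (adjusted p 9.68e-19, edgeR) and 4.67 (8.29e-40). CDH8 rose from 1.48 CPM to 2.5 and 16 CPM (log2 fold changes 0.75 and 3.43), and its call in ETS1-Low was lost with FPKM plus 1 and no filter (adjusted p 0.0611, limma). CDH7, at 1.1 CPM in RFP, fell to 0.107 CPM in ETS1-Low, where it had 3 to 5 counts per library, and rose to 8.77 CPM in ETS1-High. CDH6 and CDH20, named after their values were seen, fell with CDH2 in ETS1-Low. CDH6 had 110.52 to 150 counts per RFP library, 0 to 2 in ETS1-Low and 9 to 19.45 in ETS1-High. CDH20 had 2.46 CPM in RFP, 0.0908 in ETS1-Low and 2.42 in ETS1-High, with a log2 fold change of -4.74 in ETS1-Low (adjusted p 3.18e-21, edgeR) and -0.02 in ETS1-High (0.917), which turned to 0.05 without RFP replicate 2 and to 0.01 and 0.02 without ETS1-High replicate 1 and replicate 3. CDH3 (P-cadherin), also named afterwards, stood at 10.3, 6.16 and 13.7 CPM, and its call in ETS1-High against RFP (log2 fold change 0.41) was lost with FPKM plus 1 and no filter (0.26, adjusted p 0.062, limma).

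CDH11 made up most cadherin RNA in every library. Over 21 cadherin genes, the summed FPKM was 83.2 ± 4.08 in RFP, 62.2 ± 4.02 in ETS1-Low and 132 ± 1.54 in ETS1-High (SD, n = 3). CDH11 took 64.8 ± 1.1%, 72.9 ± 2.7% and 72.7 ± 0.2% of it. CDH2 took 8.94 ± 0.68% in RFP, 0.17 ± 0.06% in ETS1-Low and 3.75 ± 0.1% in ETS1-High. CDH1 took at most 0.1% in any library.

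**Figure D4:**
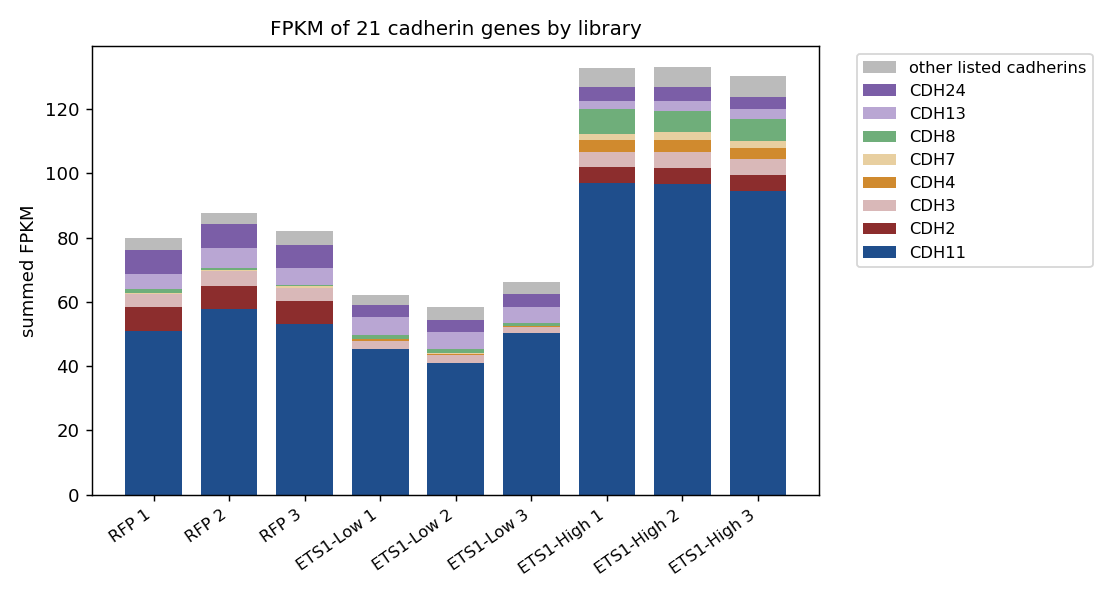
Stacked FPKM (vertical axis, from 0) of 21 cadherin genes in each of the 9 libraries, with 8 genes shown singly and the rest summed. CDH11 is the tallest segment in every bar, the CDH2 segment is too thin to see in ETS1-Low (0.09 to 0.14 FPKM), and the ETS1-High bars are the tallest (132 ± 1.54 FPKM; SD, n = 3).

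Catenins and other partners tie cadherins to actin and to neighbouring junctions. Of 16 listed, 13 were tested, and 5 were higher and 8 lower in ETS1-High against RFP (median -0.20), and 5 higher and 7 lower in ETS1-Low (median -0.34). Over all genes tested, 74.2% were called in ETS1-High (median -0.01) and 74.1% in ETS1-Low (median 0.01), split about evenly by direction, so 13 and 12 of 13 called stand beside a high background. AFDN, which encodes the junction protein afadin, was at 357 CPM in RFP and fell to 153 in ETS1-Low and 148 in ETS1-High. VCL, the gene of the actin linker vinculin, rose from 148 CPM to 335 and 304 CPM, and CTNND1, the gene of p120 catenin, from 135 CPM to 195 and 228 CPM. Each of these changes against RFP was called in both ETS1 groups, with absolute log2 fold changes of 0.53 to 1.27.

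Further transcription factors linked to the transition, the E-protein partners of TWIST1 and their ID inhibitors were taken as 1 list of 15, of which 13 were tested. In ETS1-High against RFP 10 were higher and 1 lower (median 1.06), and in ETS1-Low 9 higher and 4 lower (median 0.60). Of all genes tested, 37% were higher and 37.2% lower in ETS1-High, and 37.9% and 36.2% in ETS1-Low, with medians of -0.01 and 0.01. TCF12 and TCF4, which encode E-proteins that pair with basic helix-loop-helix factors such as TWIST1, both rose. TCF12 went from 142 ± 2.71 CPM in RFP to 481 ± 9.09 in ETS1-Low and 481 ± 4.11 in ETS1-High, and TCF4 from 43 ± 2.07 to 77.2 ± 0.77 and 96.5 ± 2.79 CPM (SD, n = 3). ID3, an inhibitor of E-proteins, rose as well, from 28.6 ± 1.53 to 131 ± 0.97 and 194 ± 9.97 CPM (SD, n = 3). The 1 gene of the list called lower in ETS1-High was PRRX1. It had 148 to 170 counts per RFP library, 1 to 2 in ETS1-Low and 7 to 9 in ETS1-High. The 4 called lower in ETS1-Low were PRRX1, FOXC1, FOXC2 and GSC. A list of 16 corepressors and other cofactors of the Snail and ZEB factors was tested in full. Of these, 8 were higher and 4 lower in ETS1-High and 10 higher and 5 lower in ETS1-Low. The 12 called in ETS1-High are a share near the 74.2% of all genes called there. In ETS1-Low all but 1 of the 16 were called, a larger share than the 74.1% of all genes. Their median log2 fold changes were small, at 0.08 and 0.11. KDM1A, the lysine demethylase recruited by SNAI1, fell by 0.58 on the log2 scale in ETS1-High and by 0.32 in ETS1-Low. RCOR2, a partner of KDM1A, fell by 1.19 and 1.23, and KAT2B, an acetyltransferase, rose by 1.48 and 0.85.

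Epithelial genes other than CDH1 and EPCAM were called in both directions. Of 37 junction and keratin genes, 22 were tested, with 8 higher and 9 lower in ETS1-High against RFP and 11 higher and 7 lower in ETS1-Low (medians 0.07 and 0.55). The total called in ETS1-High is near the background of 74.2% of all genes. In ETS1-Low 74.1% of all genes were called, 37.9% higher and 36.2% lower, so a larger share of the list was higher there. The medians over all genes were -0.01 and 0.01. CLDN1, a tight junction claudin, rose from 2.67 CPM in RFP to 15.3 and 34.6 CPM in ETS1-Low and ETS1-High, and PKP2, a desmosomal plakophilin, from 1.44 to 5.05 and 31.3 CPM. The desmosomal genes of the list did not move together. PKP1 rose from 0.133 CPM to 0.292 and 3.2 CPM, while DSP fell from 3.07 CPM to 0.203 and 0.538 CPM. DSG2 fell from 36 to 50 counts per RFP library to 0 to 2 in ETS1-Low and 1 to 3 in ETS1-High. F11R, the gene of a junctional adhesion molecule, fell from 61.8 to 32.5 CPM in ETS1-High and stood at 62.9 CPM in ETS1-Low, a log2 fold change of 0.03 that turned to -0.02 with upper-quartile factors and without RFP replicate 1. Of 16 factors of the epithelial state, 9 were tested, with 3 higher and 5 lower in ETS1-High and 3 higher and 4 lower in ETS1-Low. Their median log2 fold changes were -0.83 and -0.28. In ETS1-High, 2 were at least 2-fold higher and 4 at least 2-fold lower. KLF5 rose from 1.5 CPM to 31.2 in ETS1-Low and 24.7 in ETS1-High, EHF from 0.14 to 0.37 and 1.95 CPM, and ELF3 fell from 1.66 to 0.47 and 0.34 CPM. The call of EHF in ETS1-Low was lost with FPKM plus 1 and no filter (adjusted p 0.286, limma).

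Of 20 mesenchymal markers, 18 were tested, with 9 higher and 8 lower in ETS1-High against RFP (median 0.24) and 3 higher and 12 lower in ETS1-Low (median -0.90). Between ETS1-High and ETS1-Low, 12 were higher and 5 lower (median 1.11). Over all genes tested 74.2%, 74.1% and 59.2% were called in these comparisons, with medians of -0.01, 0.01 and 0. The 3 genes named next were called and each moved the same way in both ETS1 groups, unlike some others of the list. THY1, a surface glycoprotein of mesenchymal and neural cells, was at 75.7 CPM in RFP and fell to 5.07 in ETS1-Low and 12.7 in ETS1-High. SPARC, a matrix-binding glycoprotein, fell from 1730 to 894 and 662 CPM, and COL3A1, a fibrillar collagen, rose from 176 to 342 and 450 CPM. By mean CPM, TNC, MMP2, COL1A1, TAGLN and POSTN of the same list were instead lowest in ETS1-Low and highest in ETS1-High. TNC stood at 1890 CPM in RFP, 1160 in ETS1-Low and 2730 in ETS1-High, and MMP2 at 149, 82.7 and 230 CPM. Among 9 tested of 12 other intermediate filament genes, 5 fell in each ETS1 group against RFP, with 2 higher in ETS1-High and 3 in ETS1-Low, beside the same shares of all genes. NES (nestin), which assembles with vimentin in progenitor cells, fell from 40.7 CPM to 2.26 and 1.09 CPM, and the neuronal filament gene INA from 41.1 to 6.36 and 4.87 CPM. LMNA, the lamin A gene, rose from 221 to 483 and 540 CPM.

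For each tested gene of the set, the gene with the most similar pattern was sought by Pearson's correlation of log2 CPM over the 9 libraries, among 12399 or 12400 genes whose mean reached 100 counts. For CDH2 the nearest was STAC (r = 0.998), with 14.4 CPM in RFP, 1.01 in ETS1-Low and 11.4 in ETS1-High, and 462 genes had an r above 0.95. For TWIST1 it was BCHE (r = 0.998; 4.25, 5.58 and 24.2 CPM), for CDH11 LTBP1 (r = 0.999; 8.67, 7.32 and 73.9 CPM) and for VIM FBLN1 (r = 0.998; 163, 113 and 98.5 CPM). EPM2AIP1 for ZEB1 (r = 0.993), SCAF8 for ZEB2 (0.995), SENP1 for SNAI2 (0.982) and COX7B for SNAI1 (0.952) followed. These correlations describe 9 libraries of 3 groups.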

How the data were processed

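RNA-seq of 9 TC-32 libraries was analysed from 2 tables that the authors deposited, one of expected counts per gene and one of FPKM, both from RSEM, per the file headers and names. The submitters' processing notes name cutadapt 4.4, STAR 2.7.3, featureCounts of Subread 2.0.3, limma 3.38.3 and the build GRCh38, with no role or order. The annotation release and the use of strand in counting are not given in the sources used here. Groups came from the sample titles, with L and H in the column names read as Low and High.

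The members and lists were chosen with earlier results of these data known. Expected counts were rounded, filtered (filterByExpr) and fitted in edgeR 4.0.16 (R 4.3.3) for its quasi-likelihood test (robust, TMM, all 9 libraries, group only) with Benjamini-Hochberg adjustment over 17235 genes. The script was tested on simulated data. CPM use TMM library sizes. The mean chi-square per gene between replicates was 2.66 to 5.19, where sampling noise gives about 1. Each library was counted separately, though this value cannot tell technical from biological spread. Counts lack molecular identifiers, so the floor of 3 counts covers counting error only. Of 170 list symbols, 3 were found by gene identifier under older names. Regional medians cover tested genes above 1 log2 CPM with starts within 10 Mb in GENCODE v44, which held 99.2% of tested genes. Named genes were the 10 members, ETS1, the antisense neighbours and the most similar gene per member. Up to 3 genes per list were named by rank of p for ETS1-High against RFP. CDH3, CDH6 and CDH20 were added after their values were seen. So were CAV1, NKX2-2, NR0B1, PRRX1, FOXC1, FOXC2, GSC, PKP1, DSP, DSG2, TNC, MMP2, COL1A1, TAGLN and POSTN, which did not go through the alternatives. The alternatives were other scalings, the DESeq2 test (DESeq2 1.42.0), other filters, a replicate block, fits of 2 groups, each library left out, limma 3.58.1 on the log2 of FPKM plus 1 or 0.1, and a window of 5 Mb.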

Additional observations from a re-analysis of the deposited data

Results flagged for a closer look

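In 3 of the cadherin genes named above, ETS1-Low and ETS1-High moved in opposite directions against the same RFP libraries, each past the threshold, and ETS1-High against ETS1-Low was itself called by edgeR's quasi-likelihood test. CDH11 was higher by 0.94 on the log2 scale in ETS1-High and lower by a log2 fold change of -0.08 in ETS1-Low, a difference of 1.02 (adjusted p 4.77e-33, edgeR), and its fall in ETS1-Low was not past the threshold without ETS1-Low replicate 1 or 2. CDH7 had a log2 fold change of 2.99 for ETS1-High and -3.35 for ETS1-Low, a difference of 6.35 (adjusted p 1.01e-31, edgeR). CDH3 had 0.41 and -0.75, a difference of 1.15 (adjusted p 1.59e-18, edgeR), and its rise in ETS1-High was not past the threshold with FPKM plus 1 and no filter (0.26, adjusted p 0.062, limma). Genes of the other lists, which were not screened in this way, also had calls in opposite directions.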

How the results depend on the processing

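Of 24 log2 fold changes of the 8 tested genes (3 comparisons each), 19 kept their direction and their side of the threshold under every alternative that could be fitted, including TWIST1, VIM, CDH2 and SNAI2 in all 3 comparisons. SNAI2 had no value with FPKM of at least 1. The other 5 were SNAI1 in ETS1-Low against RFP and between the ETS1 groups, ZEB1 and CDH11 in ETS1-Low against RFP, and ZEB2 in ETS1-High against RFP. Reversed signs were all of small values. With upper-quartile factors, ETS1-High against RFP went to -0.047 for ZEB2 and -0.048 for ZEB1-AS1, and ETS1-Low against RFP to -0.025 for F11R. With at least 10 counts in every library, ZEB2 and ZEB1-AS1 in ETS1-High went to -0.006 and -0.007. With FPKM plus 1 (both filters) and plus 0.1, ZEB2 in ETS1-High went to -0.15 and -0.153, ZEB1-AS1 in ETS1-High to -0.017 and -0.027, ZEB1 in ETS1-Low to -0.041 and -0.053, and F11R in ETS1-Low to -0.001. With a library left out, values against RFP ran from -0.002 to 0.037 (ZEB2), -0.073 to 0.097 (ZEB1-AS1) and -0.077 to 0.048 (CDH20) in ETS1-High, and from -0.278 to 0.041 (SNAI1), -0.166 to 0.066 (ZEB1-AS1) and -0.02 to 0.062 (F11R) in ETS1-Low. Between the ETS1 groups they ran from -0.05 to 0.175 (ZEB1-AS1) and -0.277 to 0.019 (VIM-AS1). The cause was not tested. The number of the 8 genes changed at least 2-fold in ETS1-Low against RFP was 2 in place of 1 with upper-quartile factors and 1 to 2 with a library left out (without RFP replicate 1 or ETS1-Low replicate 1), since SNAI2 lies near 2-fold. Over all genes, the 2-fold counts of 3626, 3555 and 1679 (ETS1-High and ETS1-Low against RFP, then ETS1-High against ETS1-Low) were 2035, 1985 and 831 with at least 10 counts in every library, where fewer genes were tested, and 1257, 1219 and 430 with FPKM plus 1. They were 1730, 1712 and 699 with FPKM plus 0.1, and 1407, 1359 and 458 with FPKM plus 1 and no filter. That last setting took the share of higher calls against RFP to 38.4% in ETS1-High and 36.8% in ETS1-Low. With a window of 5 Mb, the regional median in ETS1-Low against RFP was 0.16 for TWIST1 and 0.3 for CDH2. With a library left out the numbers of all genes called ran from 12392 to 12591, 12401 to 12488 and 9504 to 9720. The numbers of the 8 genes called were 6, 6 and 8 with the replicate block, and the block moved no call of these genes. The labels give the libraries no link other than a shared number. Over all genes tested, same-numbered ones did not deviate together (r of -0.024 to 0.025). Such a value over all genes cannot show whether a few genes were paired.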

Other observations

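The antisense neighbours of ZEB1, ZEB2 and VIM were below their partners, ZEB1-AS1 by less than the others once scaled to length. In FPKM, ZEB1-AS1 stood at 1.63 in RFP, 1.34 in ETS1-Low and 1.6 in ETS1-High, against 3.1, 2.99 and 5.28 for ZEB1. ZEB1-AS1 had 2.08 CPM in RFP, 1.97 in ETS1-Low and 2.1 in ETS1-High, ZEB2-AS1 had 0.75, 0.52 and 0.366 CPM, and VIM-AS1 1.77, 1.57 and 1.43 CPM. Against RFP, ZEB2-AS1 fell in ETS1-High (log2 fold change -1.03, SE 0.30; edgeR adjusted p 0.00184), and the other comparisons of the 3 genes did not pass the threshold in the fit reported. Some passed in other settings. VIM-AS1 in ETS1-High against RFP passed without ETS1-High replicate 2 (-0.45, adjusted p 0.0421, edgeR) and with the filtered FPKM values (adjusted p 0.0427 and 0.0435, limma). ZEB2-AS1 in ETS1-Low passed with at least 10 counts in every library (-0.54, adjusted p 0.0458, edgeR). Exons of each overlap those of its partner, and whether counting used strand is not given, so reads of a pair may not be told apart.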
